A study of Mus musculus with 6 samples.

Results

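Transcripts of the vascular endothelial growth factor (VEGF) family were measured in sorted EPCAM+ cells from 6 breast tumors of mice whose VEGF-A was being neutralized. The family was taken as 10 listed genes, all 10 of which were found among the 47643 gene identifiers of the count tables. They are 5 ligands (Vegfa, Vegfb, Vegfc, Vegfd and Pgf), 3 receptors (Flt1, Kdr and Flt4) and 2 neuropilins (Nrp1 and Nrp2). All 6 samples belong to 1 group, B20-4.1.1. The mice were of the strain FVB/N-Tg(MMTV-PyVT)634Mul/J, in which the mammary tumor virus promoter drives the polyoma middle T oncogene in mammary epithelium, so that all of them carried the same transgene. They received B20-4.1.1, an antibody against VEGF-A, at 5 mg/kg 2 times per week for 6 weeks from the age of 7 weeks. No sample of untreated mice and no class of tumor hypoxia is given in the labels, so a level here is a level under blockade and no effect of the antibody on a transcript was measured.

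The VEGF ligands are secreted dimers that act mainly on endothelial cells, which line vessels. VEGF-A binds the receptors encoded by Flt1 and Kdr, VEGF-B and placental growth factor bind the one encoded by Flt1, and VEGF-C and VEGF-D bind the one encoded by Flt4, the main receptor of lymphatic endothelium. Neuropilins are coreceptors that also bind class 3 semaphorins, and Vegfa is a well-known target of the hypoxia-inducible factors (HIF), as are Slc2a1, the glucose transporter GLUT1, and Car9, the membrane carbonic anhydrase.

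The 6 libraries held 2509482 to 5893246 counts on genes, and the 3-count floor of detection corresponded to between 0.509 and 1.20 CPM (counts per 1000000 counts on genes). Between 16.1% and 41.4% of the counted reads fell on no gene, with the highest share in tumor 2, the least deep library. The library of tumor 1 was the least like the rest, with a median r of 0.788 across 8873 genes with the other libraries against 0.905 to 0.939 for those, and relations are therefore also given without it. Luminal epithelial markers summed to between 3957 and 4874 CPM, with Epcam at 611 CPM or more in every tumor. The study's methods give the sort as also excluding cells with CD31 or PDGFRα, so marker levels describe the sorted cells and not the whole tumors. Of 10 blood endothelial markers, 7 were at or under the floor in every tumor and the sum was 4.88 to 9.46 CPM. Cdh5, a defining endothelial cadherin, had at most 1 count. Tie1, Emcn and Cldn5 had no count in any tumor, which allows up to 1.20 CPM of each in the least deep library. Other markers of the list were detected, with 9 to 24 counts of Esam, 3 to 12 of Pecam1 and 2 to 10 of Egfl7. The part of endothelial RNA in the receptor counts was not tested. Tumor 3 stood apart by 864 CPM of erythroid markers against 69.4 CPM or less in the others, and by 610 counts of Lyz2, a myeloid lysozyme, against 123 or less. Because each sample is a bulk library, fewer cells that express a gene and less RNA per cell cannot be told apart.

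Vegfa was detected well above the floor in every tumor and covered a 3.84-fold range. Its counts were 214, 121, 260, 483, 698 and 213 in tumors 1 to 6. These correspond to 36.3, 48.2, 63.0, 103, 139 and 41.6 CPM, with a mean of 71.9 ± 40.8 CPM (SD, n = 6). Tumors 5 and 4 were the highest and their exact 95% Poisson intervals (129 to 150 CPM and 93.8 to 112 CPM) lay above those of the other tumors, whose upper bounds did not exceed 71.2 CPM. Such intervals cover counting error only.

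Vegfb, which signals through the receptor encoded by Flt1 and is best known in heart and muscle, stood apart in tumor 1 alone. Its level was 54.5, 30.7, 26.2, 27.7, 24.8 and 32.2 CPM in tumors 1 to 6, with a mean of 32.7 ± 11.0 CPM (SD, n = 6). Tumor 1, the lowest in Vegfa, was the highest in Vegfb, and tumor 5, the highest in Vegfa, was the lowest in Vegfb. Apart from tumor 1, the Vegfb levels stayed between 24.8 and 32.2 CPM.

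Pgf encodes placental growth factor, which B20-4.1.1 is not directed against. Its level was 48.0, 22.7, 35.6, 34.5, 69.5 and 27.3 CPM in tumors 1 to 6, with a mean of 39.6 ± 17.0 CPM (SD, n = 6). The highest and lowest tumors differed 3.06-fold, and tumor 5 again stood at the top.

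The lymphangiogenic ligands were scarce. Vegfc had 3, 14, 10, 16, 115 and 17 counts in tumors 1 to 6, or 0.509, 5.58, 2.42, 3.40, 23.0 and 3.32 CPM. Tumor 5 alone carried most of these counts, and tumor 1 did not exceed the floor. Vegfd had 1 count in tumor 3 and none in the other 5 tumors, and so was not detectable at this depth.

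**Figure D1:**
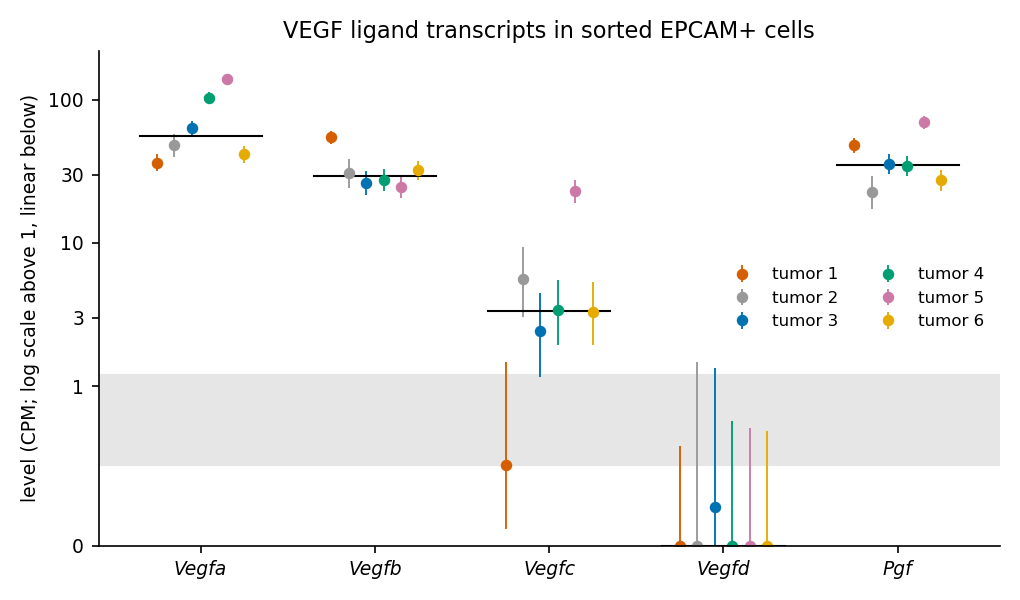
Level of each VEGF ligand transcript (vertical axis, CPM, log scale above 1 and linear below) in each of the 6 tumors (colored points, with exact 95% Poisson intervals). Black bars mark the medians and the gray band the 3-count floors of the libraries. Vegfa spans 36.3 to 139 CPM, Vegfb is highest in tumor 1 at 54.5 CPM, Vegfc is highest in tumor 5 at 23.0 CPM, and Vegfd stays under the floor.

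The make-up of the ligand pool differed between tumors beyond the counting error of independent counts. Whether duplicate reads were collapsed is not given, so this error may be understated. Vegfa gave 26.1%, 45.0%, 49.4%, 61.1%, 54.3% and 39.8% of the ligand counts in tumors 1 to 6. The 95% Wilson interval of tumor 1 (23.2% to 29.2% of 821 counts) lay below those of all other tumors, and that of tumor 4 (57.6% to 64.4% of 791 counts) above them. Vegfb gave the largest share only in tumor 1, with 39.1%, and was 9.65% in tumor 5. Pgf held a narrower range of 20.5% to 34.5%, and Vegfc reached 8.95% in tumor 5 against 5.20% or less in the others. The ratio of Vegfa to Vegfb counts ran from 0.667 in tumor 1 to 5.63 in tumor 5. These shares take each count as 1 transcript, since transcripts in a 3′ library give about 1 read position each. On counts the median share was 47.2% for Vegfa and 24.6% for Vegfb. When the levels were instead divided by exon length, Vegfa had a median share of 30.5% and Vegfb one of 42.0%. This follows from Vegfb having the shortest exon sequence (1605 bases against 4285 for Vegfa). As longer transcripts do not give more reads in a 3′ library, the shares of counts are the measure that matches these libraries.

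**Figure D2:**
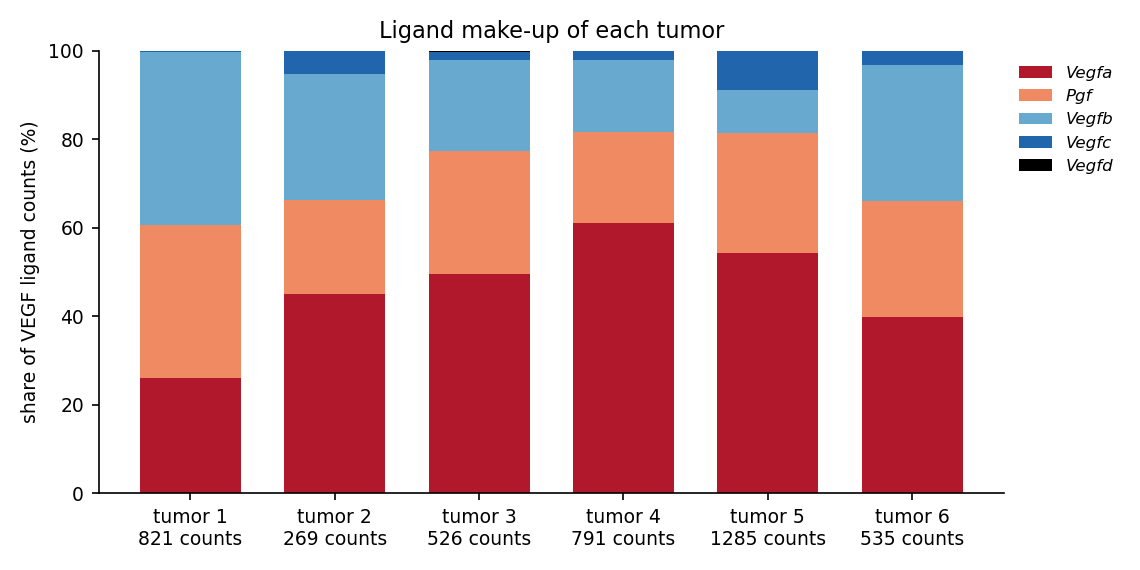
Share of each ligand (vertical axis, percent of VEGF ligand counts) in tumors 1 to 6, with the number of ligand counts under each bar. The Vegfa share is lowest in tumor 1 at 26.1% and highest in tumor 4 at 61.1%, while the Vegfb share runs from 39.1% in tumor 1 to 9.65% in tumor 5.

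Receptor transcripts were far fewer than ligand transcripts in these EPCAM+ cells. The 3 receptors summed to between 3.90 and 23.2 CPM and the 5 ligands to between 104 and 257 CPM, with ligands exceeding receptors 10.7-fold to 35.7-fold within a tumor. Flt1, which encodes VEGFR1, supplied most of the receptor counts. It had 17, 10, 40, 31, 91 and 30 counts in tumors 1 to 6, or 2.88, 3.98, 9.70, 6.59, 18.2 and 5.86 CPM. Flt1 was above the floor in all 6 tumors, and its interval in tumor 5 (14.6 to 22.3 CPM) lay above those of the other tumors, of which tumor 3 reached 13.2 CPM.

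Kdr, which encodes VEGFR2, the main signalling receptor for VEGF-A in endothelium, had 5, 1, 9, 5, 11 and 1 counts in tumors 1 to 6. The floor was exceeded in 4 tumors, and no tumor reached more than 2.20 CPM. Flt4, which encodes VEGFR3, had 14 counts (2.80 CPM, exact 95% Poisson interval 1.53 to 4.69) in tumor 5, 1 count in tumor 1 and none elsewhere. Flt4 and its ligand gene Vegfc thus had their highest counts in the same tumor. This was not particular to them, as tumor 5 had the highest level of 7 of the 10 members. In tumor 5 the blood endothelial markers summed to 8.39 CPM, inside the range of the other tumors, and the lymphatic markers Lyve1, Ccl21a and Mmrn1 had no count, while Prox1, the remaining lymphatic marker, had its lowest level there (8.79 CPM). Basal or myoepithelial markers were highest in tumor 5, at 504 CPM against 132 to 289 CPM in the others, carried by Krt14 (1798 counts) and Krt17 (637 counts). The other basal markers did not follow, since Krt5 and Trp63 were highest in tumor 4 (82 and 75 counts, against 51 and 23 in tumor 5), Oxtr was highest in tumor 6, and Acta2 and Myh11 had at most 5 counts. The part of basal cells in the tumor 5 values was not tested.

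The neuropilins were low, with medians of 1.92 CPM for Nrp1 and 3.31 CPM for Nrp2. Nrp1 had 10, 3, 37, 4, 40 and 11 counts in tumors 1 to 6, or 1.70, 1.20, 8.97, 0.851, 7.99 and 2.15 CPM. Tumors 3 and 5 were high and their intervals, with a lower bound of at least 5.71 CPM, did not overlap with those of the other 4 tumors, which reached at most 3.84 CPM. Nrp2 varied less, with 1.70, 2.79, 5.58, 3.83, 7.39 and 2.34 CPM in tumors 1 to 6. Tumors 5 and 3 were also the highest for Nrp2, though the interval of tumor 3 overlapped with those of lower tumors. Nrp1 is also made by macrophages, and tumor 3, where Nrp1 was highest, had the highest sum of the 13 immune markers (313 CPM against 104 to 249 CPM in the others). C1qa, a macrophage complement gene, had 73 counts in tumor 3, 15 in tumor 5 and between 1 and 28 in the remaining tumors. The part of these cells in the Nrp1 level was not tested.

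**Figure D3:**
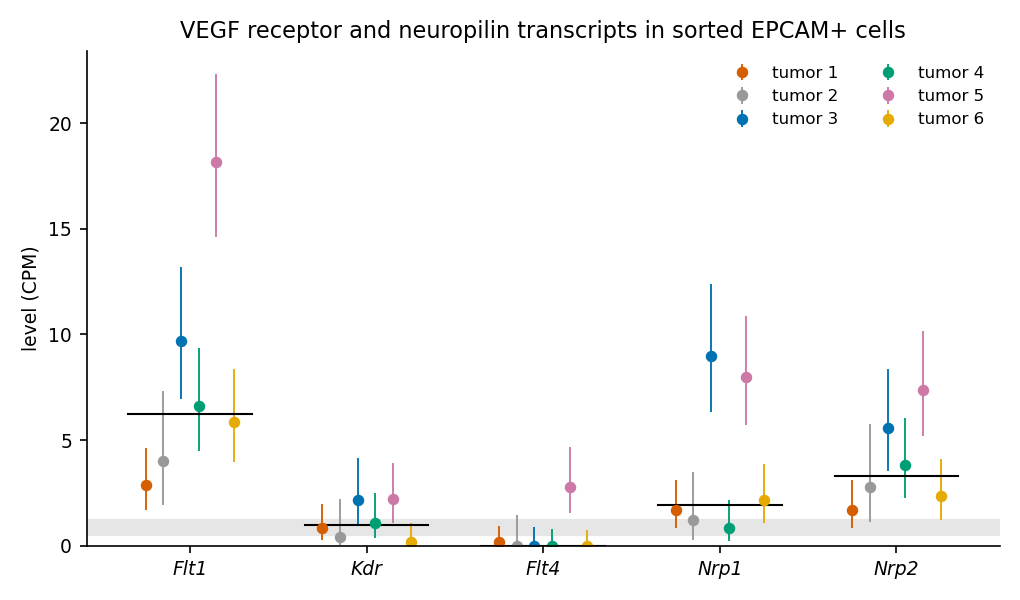
Level of each VEGF receptor and neuropilin transcript (vertical axis, CPM, linear scale) in each of the 6 tumors (colored points, with exact 95% Poisson intervals). Black bars mark the medians and the gray band the 3-count floors. Flt1 reaches 18.2 CPM in tumor 5, Nrp1 is high in tumors 3 and 5, and Flt4 exceeds the floor in tumor 5 alone.

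By median level per kilobase of exon, the order was Vegfb (18.2 CPM per kb), Vegfa (13.0), Pgf (12.1), Vegfc (1.37), Flt1 (0.461), Nrp2 (0.279), Nrp1 (0.196) and Kdr (0.106), with Vegfd and Flt4 at a median of 0. In a 3′ library this scale lowers genes with long exon sequence. Of the 9 neighbor pairs in this order, 3 differed in the same direction in 6 of 6 tumors: Pgf above Vegfc, Vegfc above Flt1, and Flt1 above Nrp2. Each of these had p = 0.03125 by an exact two-sided sign-flip permutation test paired within tumors, the smallest p that 6 tumors allow, and an adjusted p of 0.09375 over the 9 pairs, so no pair passed the adjusted threshold of 0.05. The pairs Vegfb and Vegfa, Vegfa and Pgf, and Nrp2 and Nrp1 changed order between tumors. Counted per transcript instead, Vegfa ranked first, followed by Pgf, Vegfb and Flt1, and 1 neighbor pair, Vegfb above Flt1, kept its direction in all 6 tumors. The pair Vegfc and Flt1 was reversed, with Flt1 above Vegfc in 4 of 6 tumors (median log2 difference 0.87). Its order per kilobase therefore depended on exon length (2449 bases for Vegfc, 13504 for Flt1). On that scale Vegfa exceeded Vegfb in 5 of 6 tumors, with a median log2 difference of 0.96 (exact permutation p = 0.09375, adjusted over 3 ligand pairs p = 0.140625). Vegfa exceeded Pgf in 5 of 6 tumors, with a median log2 difference of 0.91 (exact permutation p = 0.0625, adjusted p = 0.140625). Tumor 1 was the exception in both cases.

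No gene overlaps Vegfa, Vegfb, Vegfc, Vegfd, Pgf, Flt1, Kdr or Flt4 in the GRCm38 annotation, and those overlapping Nrp1 and Nrp2 had at most 1 count. Reads running on from adjacent genes that do not overlap a member were not examined. Vegfa lies on chromosome 17 from 46016993 to 46032369 (minus strand), Vegfb on chromosome 19 from 6982473 to 6987651 (minus strand), Pgf on chromosome 12 from 85166635 to 85177790 (minus strand), and Flt1 on chromosome 5 from 147561604 to 147726011 (minus strand). In the last 300 bases of each member, where a 3′ library reads, no stretch of 50 bases also occurred in another gene.

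The spread between tumors was uneven across the family. The biological coefficient of variation, edgeR's estimate of the spread beyond counting error, was 1.08 for Vegfc, 0.870 for Nrp1, 0.609 for Flt1, 0.510 for Vegfa, 0.472 for Nrp2, 0.368 for Pgf and 0.297 for Vegfb. Since spread falls with level, each gene was also ranked by its dispersion over the trend at its own level among 12088 genes. Vegfc stood at the 98.7th percentile, Nrp1 at 94.7, Vegfa at 88.5 and Flt1 at 85.1. Pgf (71.1), Nrp2 (64.6) and Vegfb (54.7) lay closer to the middle. Without tumor 5 the percentile of Pgf was 32.1, that of Nrp2 44.1 and that of Flt1 56.0, and without tumor 1 that of Vegfb was 30.4, so 1 tumor set much of the spread of these genes. Kdr, Flt4 and Vegfd were too low to enter this estimate.

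**Figure D4:**
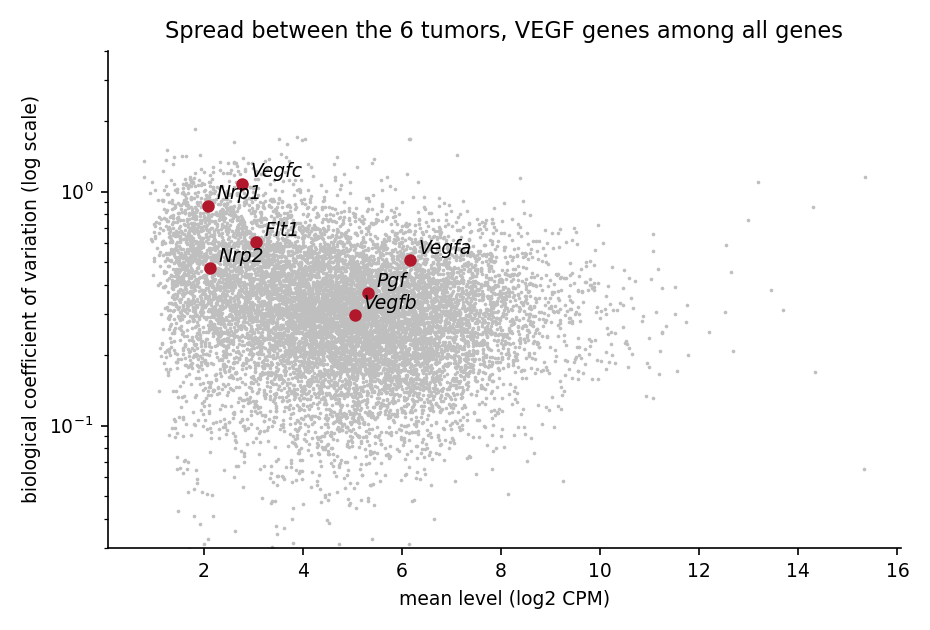
Biological coefficient of variation between the 6 tumors (vertical axis, log scale) against mean level (horizontal axis, log2 CPM) for 12088 genes (gray points), with 7 VEGF family members in red. Vegfc (1.08) and Nrp1 (0.870) lie in the upper part of the genes at their level and Vegfb (0.297) near the middle.

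To ask whether the members varied with a transcript measure of hypoxia, they were related to a score of the other genes that the study uses for this purpose besides Vegfa. The score was the mean TMM-scaled CPM of Slc2a1 and Car9, which ran from 53.8 in tumor 2 to 128 in tumor 5. Slc2a1 was the more abundant of the pair, at 92.1 to 212 CPM against 8.82 to 46.5 CPM for Car9, and so set most of the score. For Vegfa, Pearson's r with the score was 0.73 (exact permutation p = 0.0944, adjusted over 7 members p = 0.301) and Spearman's rho was 0.54 (exact permutation p = 0.297). Without the 2 tumors farthest from the median score, tumors 2 and 5, the Vegfa r was 0.69, without tumor 5 alone it was 0.47, and without tumor 1 it was 0.81. Pgf had r = 0.78 (exact permutation p = 0.0694, adjusted p = 0.301) and rho = 0.71 (exact permutation p = 0.136), and its r became -0.37 without tumors 2 and 5 and so rested on them. Flt1 had r = 0.68 (exact permutation p = 0.129, adjusted p = 0.301) and rho = 0.54 (exact permutation p = 0.297), and its r became 0.10 without the same tumors. The values for Vegfb (-0.35), Vegfc (0.47), Nrp1 (0.32) and Nrp2 (0.52) had adjusted permutation p of 0.459 or more in exact tests. No member passed the threshold on this score.

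The score genes differed in their relation to the family. With Car9 alone, Vegfa had r = 0.96 (exact permutation p = 0.00417, adjusted over 7 members p = 0.0292) and rho = 0.94 (exact permutation p = 0.0167, adjusted p = 0.0583). Without tumors 1 and 5, the farthest from the median Car9 level, r was 0.87, and without tumor 1 alone it was 0.94. Flt1 had r = 0.92 with Car9 (exact permutation p = 0.0139, adjusted p = 0.0486) and rho = 0.94 (exact permutation p = 0.0167, adjusted p = 0.0583), and r was 0.50 without tumors 1 and 5 and 0.88 without tumor 1 alone. Nrp2 had r = 0.87 with Car9 (exact permutation p = 0.0264, adjusted p = 0.0616), which became 0.35 without tumors 1 and 5, and Vegfc had r = 0.84 (exact permutation p = 0.0528, adjusted p = 0.0924), which became -0.56. Pgf had r = 0.58 with Car9 (exact permutation p = 0.208, adjusted p = 0.243), which was -0.24 without tumor 5 and 0.96 without tumor 1, and Nrp1 had r = 0.48 (exact permutation p = 0.328). Vegfb ran the other way, with r = -0.78 (exact permutation p = 0.0667, adjusted p = 0.0933) and rho = -0.89 (exact permutation p = 0.0333, adjusted p = 0.0583), and r was -0.64 without tumor 1. With Slc2a1 alone, r was 0.76 for Pgf, 0.64 for Vegfa, 0.59 for Flt1, 0.41 for Nrp2, 0.36 for Vegfc, 0.25 for Nrp1 and -0.24 for Vegfb, with adjusted exact permutation p of 0.470 or more. Adjusted over the relations to both genes together, the Vegfa and Car9 relation had an exact permutation p of 0.0583 and the Flt1 and Car9 relation one of 0.0972. Car9 is overlapped by the antisense gene Gm12454, which had up to 26 counts.

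**Figure D5:**
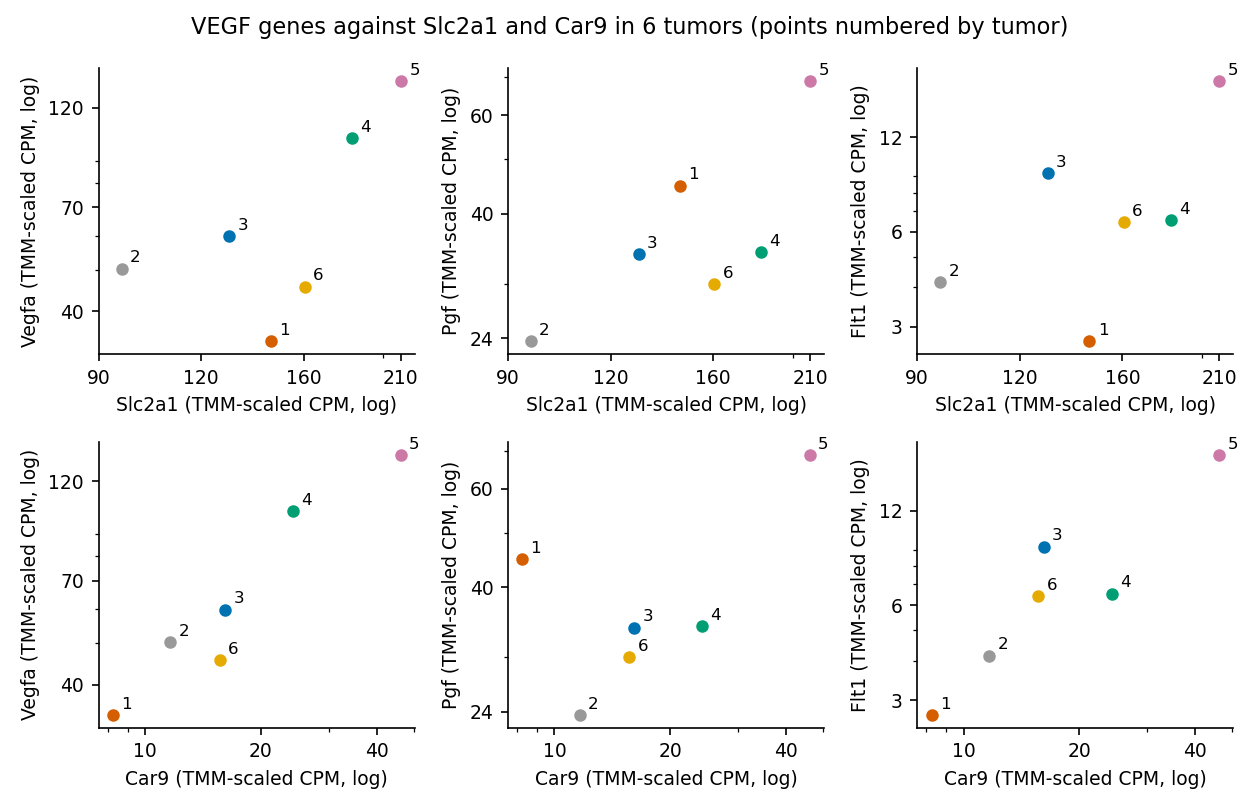
TMM-scaled CPM of Vegfa, Pgf and Flt1 (vertical axes, log scale) against that of Slc2a1 (upper row) and Car9 (lower row, horizontal axes, log scale), with each point numbered by tumor. Vegfa follows Car9 (r = 0.96) more closely than Slc2a1 (r = 0.64), where tumor 1 lies low, and Pgf is high in tumor 1, where Car9 is lowest.

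Sequence around RefSeq transcript starts is shown for Vegfa, Flt1 and Vegfb, beside Car9 itself. The members were those whose levels lay closest to or most opposed to Car9 among the 4 with enough counts for the fit. Each window runs from 250 bases before to 50 bases after a transcript start in RefSeq (GRCm38.p6), is written in the direction of transcription, and has the core letters of the HIF binding element, ACGTG or GCGTG on either strand, in capitals (on the opposite strand they read CACGT or CACGC). In the window inside the Vegfa gene the capitals of GCGTG and CACGT lie 2 bases apart. That stretch lies within the transcribed gene and not upstream of its outer start. The window at the outer start holds neither ACGTG nor GCGTG. Sequence farther than 250 bases upstream of that start was not searched.
Vegfa, window inside the gene, chr17:46025114-46025413, minus strand: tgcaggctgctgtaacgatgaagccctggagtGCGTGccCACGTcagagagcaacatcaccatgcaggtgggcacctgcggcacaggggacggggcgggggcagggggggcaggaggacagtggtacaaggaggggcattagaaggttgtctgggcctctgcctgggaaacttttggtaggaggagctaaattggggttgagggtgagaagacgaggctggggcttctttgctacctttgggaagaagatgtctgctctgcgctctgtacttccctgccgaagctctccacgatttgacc
Vegfa, window at the gene's outer start, chr17:46032328-46032627, minus strand: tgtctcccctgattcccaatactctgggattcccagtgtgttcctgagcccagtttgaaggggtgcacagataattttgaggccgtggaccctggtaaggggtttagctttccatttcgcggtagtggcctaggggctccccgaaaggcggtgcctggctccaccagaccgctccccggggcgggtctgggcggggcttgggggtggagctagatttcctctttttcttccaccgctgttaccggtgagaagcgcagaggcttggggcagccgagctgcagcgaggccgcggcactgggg
Vegfb, chr19:6987602-6987901, minus strand: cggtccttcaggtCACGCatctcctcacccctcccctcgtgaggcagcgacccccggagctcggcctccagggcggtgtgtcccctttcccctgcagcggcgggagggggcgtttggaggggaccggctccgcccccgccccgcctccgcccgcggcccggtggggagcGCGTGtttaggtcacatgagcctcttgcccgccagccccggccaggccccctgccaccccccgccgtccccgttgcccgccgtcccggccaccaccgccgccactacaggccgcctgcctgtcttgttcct
Flt1, chr5:147725962-147726261, minus strand: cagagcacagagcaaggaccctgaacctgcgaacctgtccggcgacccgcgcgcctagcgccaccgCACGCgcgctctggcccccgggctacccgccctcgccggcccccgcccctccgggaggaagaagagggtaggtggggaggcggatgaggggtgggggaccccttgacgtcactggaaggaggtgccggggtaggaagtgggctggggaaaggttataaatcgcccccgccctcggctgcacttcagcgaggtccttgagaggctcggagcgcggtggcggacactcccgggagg
Car9, chr4:43506776-43507075, plus strand: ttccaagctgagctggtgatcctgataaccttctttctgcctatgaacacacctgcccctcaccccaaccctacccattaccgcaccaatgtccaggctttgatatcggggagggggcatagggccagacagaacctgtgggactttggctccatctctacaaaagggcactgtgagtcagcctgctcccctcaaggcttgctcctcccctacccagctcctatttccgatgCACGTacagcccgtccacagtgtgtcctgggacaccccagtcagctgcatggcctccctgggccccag
ACGTG was found in 1 of the 12 RefSeq windows of the 10 members, the one inside Vegfa, and in 19.6% of 32851 promoter windows of the same length. GCGTG was found in 7 of the 12 windows, in Vegfa, Vegfb, Pgf, Flt1, Kdr, Nrp1 and Nrp2, and in 32.4% of all windows. ACGTG also lies within the E-box CACGTG, which reads the same on both strands. The GC box GGGCGG, on either strand, was found in 10 windows of 9 members, all but Vegfd, and in 35.7% of all windows. Vegfb, highest in the tumor where Vegfa was lowest, held GCGTG 2 times, as did Kdr and Nrp2. Flt1 held it 1 time, and Vegfa 1 time, only in the window inside the gene. A match of letters is a description and was not tested as a site.

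The relation to the Slc2a1 and Car9 score was also fitted across all genes with edgeR's quasi-likelihood test of the slope on the log2 score, adjusted by the Benjamini-Hochberg method over 10414 genes. No gene passed (0.0%), whereas 724 genes (6.95%) had an unadjusted p under 0.05, and DESeq2 called 20 genes (0.192%), none of them a member. Vegfa, Vegfb, Pgf and Flt1 had enough counts in every tumor to be tested. The slope, in log2 units per doubling of the score, was 1.27 ± 0.45 (SE) for Vegfa (edgeR adjusted p = 0.708). It was 0.99 ± 0.39 for Pgf (edgeR adjusted p = 0.714), 1.53 ± 0.61 for Flt1 (edgeR adjusted p = 0.714) and -0.37 ± 0.46 for Vegfb (edgeR adjusted p = 0.881). Thus 3 of the 4 members tested had a positive slope with an unadjusted p under 0.05, beside 3.41% of all genes, and none passed after adjustment. This count rested on tumor 5: without it, 0 of the 4 had an unadjusted p under 0.05, with slopes of 0.87 ± 0.65 for Vegfa (edgeR unadjusted p = 0.219), 0.47 ± 0.61 for Pgf (edgeR unadjusted p = 0.466) and 0.52 ± 0.91 for Flt1 (edgeR unadjusted p = 0.580). Without tumor 2 the Vegfa slope was 2.08 ± 0.62 (edgeR adjusted p = 0.756). Without tumor 1 the slope was 1.19 ± 0.34 for Vegfa (edgeR adjusted p = 0.177), 1.08 ± 0.31 for Pgf (edgeR adjusted p = 0.187) and 1.34 ± 0.49 for Flt1 (edgeR adjusted p = 0.255). Under a looser filter, chosen after seeing the data, Vegfc had a slope of 1.89 ± 0.98, Nrp1 one of 0.90 ± 1.11 and Nrp2 one of 0.92 ± 0.68, with edgeR adjusted p of 0.773 or more.

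The sample identifiers in the labels carry 2 prefixes, QSD (tumors 2 and 3) and QAF (tumors 1, 4, 5 and 6), whose meaning the labels do not give. Between them no gene passed in edgeR (0.0% of 10416, with 4.36% at an unadjusted p under 0.05), and DESeq2 called 2 genes (0.0192%). The QSD minus QAF difference was -0.53 for Vegfa (edgeR adjusted p = 0.924), -0.29 for Vegfb, -0.62 for Pgf and -0.28 for Flt1 on the log2 scale. With the prefix as a term in the score fit, the slope was 2.36 ± 0.64 for Vegfa and 3.19 ± 0.66 for Flt1, each with an edgeR adjusted p of 0.457. In that fit Vegfb had a slope of -1.28 ± 0.51 (edgeR adjusted p = 0.462) and Pgf one of 1.00 ± 0.59 (edgeR adjusted p = 0.538). Within the 4 QAF tumors, r with the score was 0.97 for Vegfa, -0.94 for Vegfb, 0.95 for Vegfc, 0.58 for Pgf, 0.96 for Flt1, 0.65 for Nrp1 and 1.00 for Nrp2, given as a description of 4 points with no test. The 2 QSD tumors were too few for such a value.

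Among the members themselves, levels were compared by Pearson's r of log2 TMM-scaled CPM over the 6 tumors, given here as a description of libraries that share depth and composition. Flt1 and Nrp2 had the highest value (0.95), followed by Vegfa and Nrp2 (0.86) and Vegfa and Flt1 (0.83). Vegfb was negative against the other 6 members compared, from -0.12 with Pgf to -0.93 with Nrp2. Of these, Vegfc, Nrp1 and Nrp2 had low counts in some tumors. Without tumor 1, Vegfa and Vegfb had r = -0.74, against -0.81 with it, while Vegfa and Pgf had r = 0.85, against 0.52 with it, and Pgf and Flt1 had the highest value (0.97). Tumors 1 and 5 lay at opposite ends for Vegfa, Vegfb, Flt1 and Nrp2.

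The genes whose profile was most like that of Vegfa, among 8870 genes, included Zfp729b (r = 0.98), Exosc1 (0.97), Amotl2 (0.97) and Brcc3 (0.97). Their ranges were narrower than that of Vegfa. Amotl2, an angiomotin family member, ran from 20.5 to 38.7 CPM, and Zfp729b, a zinc finger protein gene, from 14.8 to 19.6 CPM. Car9 ranked 7 in this order and Slc2a1 1075. The most opposed genes were B3gat3, Atp6ap1 and Dgka (r = -0.98 each), and Dgka, a diacylglycerol kinase, ran from 311 CPM in tumor 1 to 149 CPM in tumor 5. Vegfb ranked 8498 of the 8870.

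Genes that act with the VEGF family were read from 5 lists, none of which had a gene past the edgeR threshold. Among 24 tested genes of the HIF target list, which left out the score genes and the members, 20 had a positive slope on the score, 9 of them with an unadjusted p under 0.05 (3.41% of all genes were positive at that level), and the median slope was 0.64 against -0.02 over all genes. Adm, which encodes adrenomedullin, an endothelial growth peptide, had the steepest slope of the list (2.19 ± 0.46, edgeR adjusted p = 0.548). It stood at 64.1, 18.3, 25.0, 97.8, 115 and 38.9 CPM in tumors 1 to 6. Tumors 4 and 5 were the highest for Adm, as they were for Vegfa. Without tumor 1, 22 of the 24 slopes were positive, beside 50.7% over all genes, and the median was 0.65 against 0.01. Adm passed the threshold in that fit (edgeR adjusted p = 0.0476), as did 12 of 10825 genes (0.111%) in all. The slopes of the list are not given without tumor 5. In that setting 50 of 10461 genes had a positive slope with an unadjusted edgeR p under 0.05, against 355 of 10414 with all tumors. Ndrg1 had a slope of 1.20 ± 0.42 (edgeR adjusted p = 0.708), whereas the glycolytic enzyme genes Aldoa (0.15 ± 0.59) and Ldha (-0.02 ± 0.52) were highest in tumor 1, the tumor lowest in Vegfa.

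Genes of VEGF receptor signalling were present in these cells although the receptors were scarce. Of 41 listed genes, 37 were above the floor in every tumor and tested, with 25 positive and 12 negative slopes and a median of 0.19. Pik3r1, a regulatory subunit of phosphoinositide 3-kinase, stood at 453 to 877 CPM, and Prkca, protein kinase C alpha, at 256 to 443 CPM. Gab1, an adaptor of receptor tyrosine kinases, had the steepest slope (1.11 ± 0.50, edgeR adjusted p = 0.720). These genes serve many receptors.

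Of 16 class 3 semaphorin and plexin genes, listed as possible neuropilin partners, 5 were tested and all 5 had negative slopes, with a median of -0.62. In edgeR 2 of them had an unadjusted p under 0.05 (3.54% of all genes were negative at that level). The 5 include the B plexins Plxnb1 (-0.62 ± 0.45) and Plxnb2 (-0.19 ± 0.34), and whether these act with neuropilins here was not tested. Without tumor 1, 4 of the 5 were negative and the median was -0.50. Plxna3, a plexin that transmits semaphorin signals with neuropilins, had the lowest slope (-1.10 ± 0.44, edgeR adjusted p = 0.714) and stood at 80.3 CPM in tumor 1 and 28.0 CPM in tumor 5. Of the 12 genes for release of VEGF-C, VEGF-D and other ligands, 4 were tested, with 2 positive and 2 negative slopes. Furin, a convertase that cleaves the VEGF-C precursor, was abundant where Vegfc was at its lowest, with 573 CPM in tumor 1 and 158 CPM in tumor 5. Of 20 regulators of Vegfa transcription and mRNA, 18 were tested, with 12 positive and 6 negative slopes and a median of 0.12, which without tumor 1 was 9 of each and 0.03. Among them Stat3 (597 to 1081 CPM) and Egr1 (701 to 956 CPM) were the most abundant, and both varied less between tumors than Vegfa did.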

How the data were processed

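RNA of sorted CD45-EPCAM+ cells from 6 B20-4.1.1 tumors was made into 3′ libraries with a second-strand module carrying molecular identifiers of 6 bases. The study's methods describe the sorted tumor cells as also negative for CD31 and PDGFRα, which the sample titles do not state. According to the study's methods and the submitters' processing notes, reads were trimmed with bbduk, aligned with STAR 2.5 to GRCm38/mm10 and counted with HTSeq on the Bluebee platform. The values the authors deposited are raw counts per gene, without normalization. Collapsing by identifier, strand setting and annotation release are not given in the sources used here. Intervals and floors describe counting error alone, with each count taken as a separate molecule. If duplicate reads were not collapsed, the intervals are too narrow.

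CPM was each count over the counts on genes of its library (2509482 to 5893246). Reads on no gene (5 rows, 16.1% to 41.4% of reads) entered neither library sizes nor tests. Of 47643 identifiers, 47224 matched GENCODE M21, which gave symbols and exon lengths. Neighboring levels were compared on log2((count + 0.5)/library size), per kilobase and per transcript, by exact sign-flip permutation. Relations used TMM-scaled CPM with exact permutation over the 720 orders. Fits used edgeR 4.0.16 (quasi-likelihood, TMM, filterByExpr with minimum count 10 and minimum total 15) with Benjamini-Hochberg adjustment and a threshold of 0.05, and DESeq2 1.42.0 as an alternative, in R 4.3.3 and Python 3.11.15. Each was tested on simulated data.

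The 6 samples have different identifiers, but the labels do not say that each is a separate animal, so p-values measure only the spread between these samples. The members and gene lists were chosen with earlier results of these data known. Named list genes were the 3 of highest level and those of highest and lowest slope in each list, and genes like Vegfa were ranked by r, of which 1 is not reported here. Alternatives were other normalization, filters, score genes and samples, and each tumor left out in turn.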

Additional observations from a re-analysis of the deposited data

Results flagged for a closer look

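Dixon's ratio, the distance from an extreme tumor to its neighbor as a fraction of the whole range, was computed for 20 measures over the 6 tumors. It passed its 95% critical value for 4 of them, and chance alone gives about 1 in 20. Vegfb stood at 54.5 CPM in tumor 1, with the next tumor at 32.2 CPM and a gap of 0.749 of the range. Vegfc stood at 23.0 CPM in tumor 5, with the next tumor at 5.58 CPM and a gap of 0.774 of the range. Flt4 stood at 2.80 CPM in tumor 5, with the next tumor at 0.170 CPM, under its floor, and a gap of 0.939 of the range. The erythroid markers summed to 864 CPM in tumor 3, with the next tumor at 69.4 CPM and a gap of 0.926 of the range.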

How the results depend on the processing

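The medians of the 10 members shifted by less than 1 SD over the tumors in all 90 alternative values computed. That SD was wide (40.8 CPM beside a median of 55.6 CPM for Vegfa), and the Vegfd and Flt4 medians were 0 throughout. A larger shift was therefore hard to reach. The Vegfa median ranged from 48.2 to 63.0 CPM with each tumor left out and was 69.0 CPM without the 10 most abundant genes. None of the 44 alternative score slopes of the 4 tested members changed sign or passed the threshold, which no slope passed with all tumors either. Their size did move: with each tumor left out, the slope ranged from 0.87 to 2.08 for Vegfa, 0.47 to 1.14 for Pgf, 0.52 to 1.88 for Flt1 and -0.73 to -0.08 for Vegfb. The count of neighbor pairs with 1 direction in every tumor was 1 per transcript and ranged from 3 to 5 with each tumor left out (5 without tumor 5). The median Vegfa share was 30.5% on length-divided levels and 45.0% to 49.4% with each tumor left out. With Car9 alone in place of the score, r was 0.96 for Vegfa (adjusted exact permutation p = 0.0292) and 0.92 for Flt1 (adjusted exact permutation p = 0.0486). Adjusted over the relations to both score genes, these exact permutation p were 0.0583 and 0.0972, so neither passed. The Flt1 value fell to 0.50 without tumors 1 and 5. With each tumor left out, r ranged from -0.24 to 0.88 for Vegfc and from 0.068 to 0.67 for Nrp2, the lowest in both cases without tumor 5.

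Genes called against the score numbered 20 with DESeq2, 5 with no filter on low counts, and 0 to 12 with each tumor left out (12 without tumor 1). Between the identifier prefixes, DESeq2 called 2 genes and no filter gave 7. The Flt1 difference between prefixes was 0.12 without tumor 2 and 0.41 without tumor 5, opposite in sign to the value with all tumors, and ranged from -1.01 to 0.41 with each tumor left out. With each tumor left out, an alternative added after seeing the data, the dispersion percentile ranged from 76.1 to 94.9 for Vegfa, 30.4 to 60.9 for Vegfb, 85.4 to 99.0 for Vegfc, 32.1 to 90.8 for Pgf, 56.0 to 89.9 for Flt1, 89.7 to 97.6 for Nrp1 and 44.1 to 70.7 for Nrp2. The cause of these changes was not tested. No paired analysis was possible because the labels give 1 group. Depth limited Kdr, Flt4 and Vegfd, which had at most 14 counts in a library.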
